A study of Mus musculus with 15 samples.

Results

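Egr1, Egr2, Egr3, Nr4a1, Nr4a2, Nr4a3, Klf2, Klf4, Klf6 and Myc are genes of transcription factors whose mRNA rises within minutes of a stimulus and decays quickly. They were taken by name from the deposited table, 10 genes of 21839, and all 10 passed the filter on low counts that left 13887 genes for testing. RNA was sequenced from lymphatic endothelial cells, the cells that line lymph vessels and lymph node sinuses. The cells came from transplanted melanomas of a mouse line described as lymphangiogenic (Tumor), from the nodes draining those tumors (TdLN) and from non-draining nodes (NdLN), with 5 libraries in each group. The mice of every group were C57bl/6 animals of 10 weeks and carried the tumor, so the NdLN libraries are not from tumor-free mice. Tissue was digested and cells were sorted as CD45-negative, CD31-positive and gp38-positive. The labels leave unsaid if each library is 1 mouse or a pool, and if same-numbered libraries of different groups share mice. The p-values here treat libraries as unpaired and measure spread between libraries, which may be technical.

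Genes of the EGR family encode zinc finger proteins that bind GC-rich DNA. Their promoters hold CArG boxes, bound by serum response factor (SRF), through which the ERK kinase pathway switches them on. NR4A proteins are nuclear receptors whose activity follows their amount more than a ligand, and their genes respond to cAMP and calcium through CREB. KLF2 and KLF4 are zinc finger factors that flowing lymph or blood induces in endothelium through the kinases MEKK3 and ERK5 and the factor MEF2, KLF6 responds to injury and growth factors, and MYC, bound to MAX, raises ribosome building and growth genes.

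Promoter windows of RefSeq (build GRCm38.p6, 250 bases before to 50 after a start) were matched to 7 of the 10 genes, with 11 windows in all, 5 of them of Egr2. Egr1, Egr3 and Myc had none. The windows of the 3 Nr4a genes are shown because they share a motif while their RNA did not move alike, and those of Egr2 and Klf2 because they hold the box named above for their family. Capitals mark TGACG, the short form of the CRE that CREB binds, on either strand (CGTCA on the other), in Egr2 also the CArG box, and in Klf2 the MEF2 box alone.

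Nr4a1, chr15:101266596-101266895, plus strand: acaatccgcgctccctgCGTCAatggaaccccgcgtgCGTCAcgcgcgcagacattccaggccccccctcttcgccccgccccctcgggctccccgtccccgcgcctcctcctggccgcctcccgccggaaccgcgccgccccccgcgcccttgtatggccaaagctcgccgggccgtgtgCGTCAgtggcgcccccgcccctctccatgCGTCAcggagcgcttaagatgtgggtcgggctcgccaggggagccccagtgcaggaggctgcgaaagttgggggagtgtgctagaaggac
Nr4a2, chr2:57123954-57124253, minus strand: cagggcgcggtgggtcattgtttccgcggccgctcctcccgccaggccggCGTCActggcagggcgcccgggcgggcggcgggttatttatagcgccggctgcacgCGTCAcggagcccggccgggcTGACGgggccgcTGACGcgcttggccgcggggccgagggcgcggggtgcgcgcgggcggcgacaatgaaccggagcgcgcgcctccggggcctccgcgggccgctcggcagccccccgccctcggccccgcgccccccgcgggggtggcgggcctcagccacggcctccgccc
Nr4a3, chr4:48045055-48045354, plus strand: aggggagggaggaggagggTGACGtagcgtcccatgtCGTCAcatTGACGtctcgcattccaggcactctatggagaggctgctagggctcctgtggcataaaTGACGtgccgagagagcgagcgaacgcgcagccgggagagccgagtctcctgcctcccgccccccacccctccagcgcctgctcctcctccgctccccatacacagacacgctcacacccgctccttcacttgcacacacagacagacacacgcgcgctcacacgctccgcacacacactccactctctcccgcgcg
Egr2, chr10:67537619-67537918, plus strand: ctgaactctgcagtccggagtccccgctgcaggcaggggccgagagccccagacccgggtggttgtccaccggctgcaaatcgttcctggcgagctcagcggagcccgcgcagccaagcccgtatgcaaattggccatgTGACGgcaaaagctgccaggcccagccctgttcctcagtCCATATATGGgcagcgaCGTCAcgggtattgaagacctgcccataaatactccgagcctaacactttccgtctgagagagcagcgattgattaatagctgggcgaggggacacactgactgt
Klf2, chr8:72318812-72319111, plus strand: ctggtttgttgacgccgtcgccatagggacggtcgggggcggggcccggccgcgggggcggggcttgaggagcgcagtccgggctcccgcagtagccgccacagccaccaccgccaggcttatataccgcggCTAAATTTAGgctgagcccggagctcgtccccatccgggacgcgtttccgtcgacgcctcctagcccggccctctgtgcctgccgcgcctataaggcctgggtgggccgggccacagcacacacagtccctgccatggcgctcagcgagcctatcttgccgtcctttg

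Each of the 3 Nr4a windows held 4 copies of TGACG, counted on both strands. Of all 32817 RefSeq windows, 20.8% held at least 1 copy and 76 windows, 0.232%, held 4 or more. The full CRE, TGACGTCA, was in 1.79% of windows and in none of the 11. A CArG box was in 4 of the 5 windows of Egr2, 3 of which overlap one another, and in 1.63% of all windows. The MEF2 box was in the windows of Klf2 and Nr4a2 and in 3.19% of all windows. The EGR motif GCGNGGGCG (5.56% of all windows) was found in the windows of Nr4a1, Nr4a2, Klf2 and Klf4. E-box CACGTG (7.15%) was found in Klf4, Klf6 and 1 window of Egr2. The short NF-kB motif, common at 50.8%, was in 9 of the 11 windows, while NBRE AAAGGTCA (1.51%) and AP-1 TGANTCA (7.81%) were in none. These matches are of letters only and say nothing of binding in these cells.

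Library totals were 23830337 to 34577494 counts in Tumor, 32134127 to 37043976 in TdLN and 31894931 to 37437282 in NdLN. Prox1, the factor that keeps lymphatic identity, averaged 105 CPM (counts scaled to a common library size) in Tumor, 539 CPM in TdLN and 766 CPM in NdLN, and Pecam1 (CD31) 276 CPM in Tumor, 1179 CPM in TdLN and 1596 CPM in NdLN. Pdpn (gp38) averaged 116 CPM in Tumor, 120 CPM in TdLN and 124 CPM in NdLN, and Ptprc (CD45) 1.68, 1.10 and 5.43 CPM in Tumor, TdLN and NdLN libraries. Of 6 lymphatic markers, Prox1, Lyve1 and Mmrn1 were lower in Tumor than in TdLN, Reln was higher and Flt4 and Pdpn did not pass, with a median log2 fold change of -0.71. Transcripts of 8 pigment cell genes took 2.65% to 4.12% of the counts in Tumor libraries, 0.00117% to 0.00325% in TdLN and 0.00169% to 0.00359% in NdLN, and none of the 8 was at 0 in any group. All 6 fibroblast markers and all 7 macrophage markers were higher in Tumor than in TdLN libraries, and all 6 pan-endothelial markers were lower. For this reason the changes of the 10 members were also computed relative to summed endothelial counts, while those of other genes are given in CPM alone. In these bulk samples fewer cells of a type and less RNA per cell cannot be told apart.

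Most of the inducible factors were lower in Tumor libraries than in node libraries. Tissue was digested and sorted before RNA was sequenced. Levels in the animal and a response to that handling cannot be told apart, for these genes or the other immediate early genes below. Together the 10 took 0.115% ± 0.0133 of the counts in Tumor libraries, 0.379% ± 0.109 in TdLN and 0.771% ± 0.10 in NdLN (SD, n = 5 each). A gene was called changed at an adjusted p under 0.05 in edgeR's quasi-likelihood test with Benjamini-Hochberg adjustment over all 13887 genes. Against TdLN, 7 of 10 were lower in Tumor, beside 30.1% of all genes tested, and 1, Nr4a3, was higher, beside 31.9%. Against NdLN, 8 of 10 were lower in Tumor, beside 32.5% of all genes, and Nr4a3 was higher, beside 34.0%. These are counts in CPM, and relative to endothelial counts Klf6 was higher in Tumor and neither Myc nor Klf4 passed against TdLN, as given below. In TdLN against NdLN, 7 of 10 were lower and 0 were higher, beside 1.64% and 1.84% of all genes. These small shares vary with the tool, as 228 genes were lower and 256 higher in edgeR, 518 lower and 468 higher in DESeq2, and 489 lower and 328 higher in limma's voom, and 225 changed in all in edgeR without TdLN library 1. In each comparison the members called were also those whose libraries did not overlap between the groups. Such separation held downward for 22.5% of all genes in Tumor against TdLN, 27.0% in Tumor against NdLN and 4.95% in TdLN against NdLN, and upward for 24.1%, 27.7% and 2.87%. The share of lower members was above that of all genes in each comparison, and the distance was widest where few genes changed. The members and the gene lists below were chosen with earlier results of these data known, so the choice can add to such distances. Median log2 fold changes of the 10 were -2.08 in Tumor against TdLN, -2.95 in Tumor against NdLN and -1.02 in TdLN against NdLN, beside 0.04, 0.04 and -0.01 over all tested genes. Those of the 6 pan-endothelial markers were -1.71, -1.81 and -0.26, and the members relative to endothelial counts are given below. The comparisons share libraries, so they are not separate evidence.

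**Figure D1:**
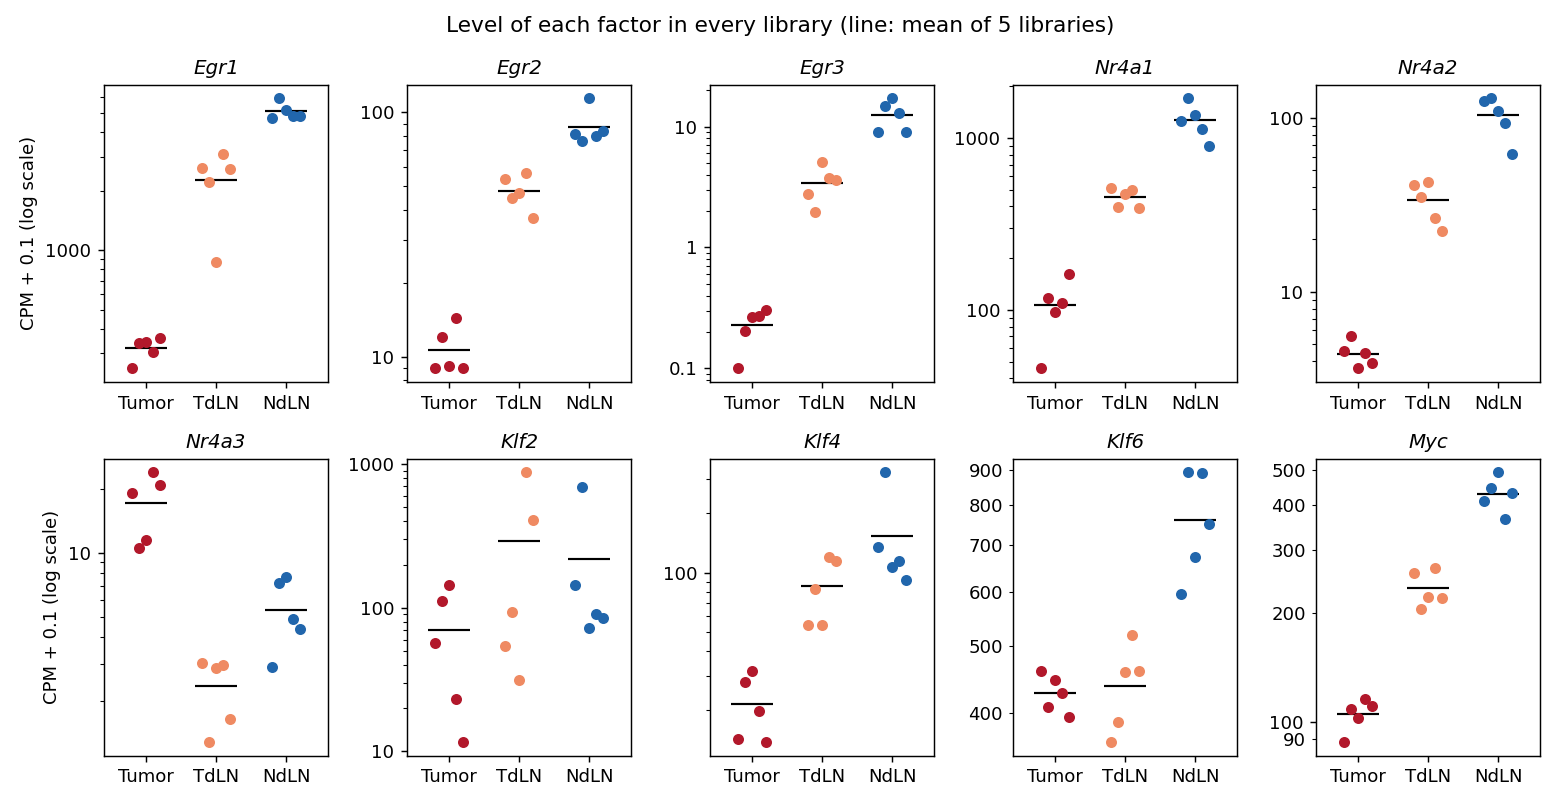
CPM + 0.1 of each member on a log axis, 1 point per library, with Tumor, TdLN and NdLN from left to right and the mean as a line. Egr1, Egr2, Egr3, Nr4a1, Nr4a2 and Myc form 3 separate levels, with Tumor lowest and NdLN highest, Nr4a3 is highest in Tumor, and Klf2 spreads from 31.4 to 879 CPM within TdLN alone.

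Among the EGR genes, all 3 had separate levels in the 3 tissues, with Tumor lowest, TdLN between and NdLN highest. Egr1 (ENSMUSG00000038418, chr18:34859823-34864984, plus strand), a widely studied immediate early zinc finger factor, had 251, 337, 344, 304 and 358 CPM in Tumor libraries, 2612, 2214, 870, 3075 and 2584 CPM in TdLN libraries and 4695, 5921, 5191, 4795 and 4822 CPM in NdLN libraries. No libraries of different groups overlapped, and the third TdLN library stood below the other TdLN libraries. Its log2 fold change was -2.83 ± 0.25 in Tumor against TdLN (SE, edgeR adjusted p = 1.75e-07) and -4.00 ± 0.27 in Tumor against NdLN (edgeR adjusted p = 6.12e-09), a level 16.0-fold lower. In TdLN against NdLN it was -1.16 ± 0.24 (edgeR adjusted p = 0.0158).

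Egr2 (ENSMUSG00000037868, chr10:67535475-67542188, plus strand), known for its role in myelin-forming Schwann cells and in restraining T cells, had 8.85, 11.9, 9.05, 14.3 and 8.90 CPM in Tumor libraries, 53.0, 44.6, 46.4, 56.5 and 36.8 CPM in TdLN libraries and 81.3, 76.3, 114, 80.1 and 83.8 CPM in NdLN libraries. Again no libraries of different groups overlapped, and NdLN library 3 was the only one past 100 CPM. The log2 fold changes of Egr2 were -2.16 ± 0.17 in Tumor against TdLN (edgeR adjusted p = 4.45e-08), -3.04 ± 0.18 in Tumor against NdLN (edgeR adjusted p = 1.34e-09) and -0.88 ± 0.17 in TdLN against NdLN (edgeR adjusted p = 0.00884). Egr3 (ENSMUSG00000033730, chr14:70077203-70082614, plus strand), a relative with overlapping roles in lymphocytes and muscle spindles, was close to absent in Tumor, with 0, 4, 6, 6 and 7 counts per library. In CPM it had 0, 0.105, 0.169, 0.172 and 0.203 in Tumor, 2.68, 1.86, 4.95, 3.66 and 3.51 in TdLN and 8.90, 14.6, 17.0, 12.9 and 8.97 in NdLN libraries. The order was that of Egr1 and Egr2, without overlap, and the Tumor values rest on 23 counts in all. Its fitted log2 fold changes, which depend on the prior count at such levels, were -4.59 ± 0.46 in Tumor against TdLN (edgeR adjusted p = 5.28e-07), -6.50 ± 0.48 in Tumor against NdLN (edgeR adjusted p = 1.77e-08) and -1.90 ± 0.37 in TdLN against NdLN (edgeR adjusted p = 0.0108).

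Within the NR4A family, Nr4a1 and Nr4a2 were lower in Tumor than in both node groups and Nr4a3 was higher. Nr4a1 (Nur77, ENSMUSG00000023034, chr15:101254269-101274795, plus strand), induced in endothelium by VEGF, had 45.5, 117, 96.7, 109 and 162 CPM in Tumor libraries, 508, 394, 470, 499 and 391 CPM in TdLN libraries and 1249, 1697, 1353, 1128 and 900 CPM in NdLN libraries. The 3 groups were separate, and the first Tumor library was the lowest of all 15. Nr4a1 had log2 fold changes of -2.09 ± 0.26 in Tumor against TdLN (edgeR adjusted p = 5.32e-06), -3.57 ± 0.27 in Tumor against NdLN (edgeR adjusted p = 2.71e-08) and -1.48 ± 0.25 in TdLN against NdLN (edgeR adjusted p = 0.00528). Nr4a2 (Nurr1, ENSMUSG00000026826, chr2:57106830-57124003, minus strand), best known from dopamine neurons, had 4.42, 5.46, 3.51, 4.34 and 3.77 CPM in Tumor libraries, 41.0, 35.2, 42.7, 26.6 and 22.2 CPM in TdLN libraries and 126, 130, 110, 94.2 and 61.7 CPM in NdLN libraries. Here too every Tumor library was below every TdLN library, and these below every NdLN library. Its level was 7.79-fold lower in Tumor than in TdLN (log2 fold change -2.96 ± 0.23, edgeR adjusted p = 4.47e-08), 24.2-fold lower in Tumor than in NdLN (-4.60 ± 0.25, edgeR adjusted p = 6.77e-10) and 3.11-fold lower in TdLN than in NdLN (-1.64 ± 0.22, edgeR adjusted p = 0.00185).

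Nr4a3 (Nor1, ENSMUSG00000028341, chr4:48045153-48086447, plus strand), the family member that does not pair with the receptor RXR, was the only one of the 10 called higher in Tumor in CPM. It had 18.9, 10.4, 11.4, 23.8 and 20.7 CPM in Tumor libraries, 2.92, 1.18, 2.76, 2.85 and 1.55 CPM in TdLN libraries and 2.81, 7.10, 7.58, 4.75 and 4.26 CPM in NdLN libraries. The Tumor libraries lay above all node libraries, while TdLN and NdLN overlapped through the first NdLN library. Nr4a3 was 7.55-fold higher in Tumor than in TdLN (2.92 ± 0.36 on the log2 scale, edgeR adjusted p = 4.74e-06) and 3.21-fold higher than in NdLN (1.68 ± 0.34, edgeR adjusted p = 0.000452). In TdLN against NdLN its value was -1.23 ± 0.34 and did not pass (edgeR adjusted p = 0.0620), though it passed in DESeq2 (adjusted p = 0.0108) and without the first NdLN library (edgeR adjusted p = 0.0433). The pigment, fibroblast and macrophage transcripts given above were higher in the same Tumor libraries as Nr4a3, and their part in its level was not tested. The promoter windows printed above hold the same count of TGACG in Nr4a3 as in Nr4a1 and Nr4a2.

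**Figure D2:**
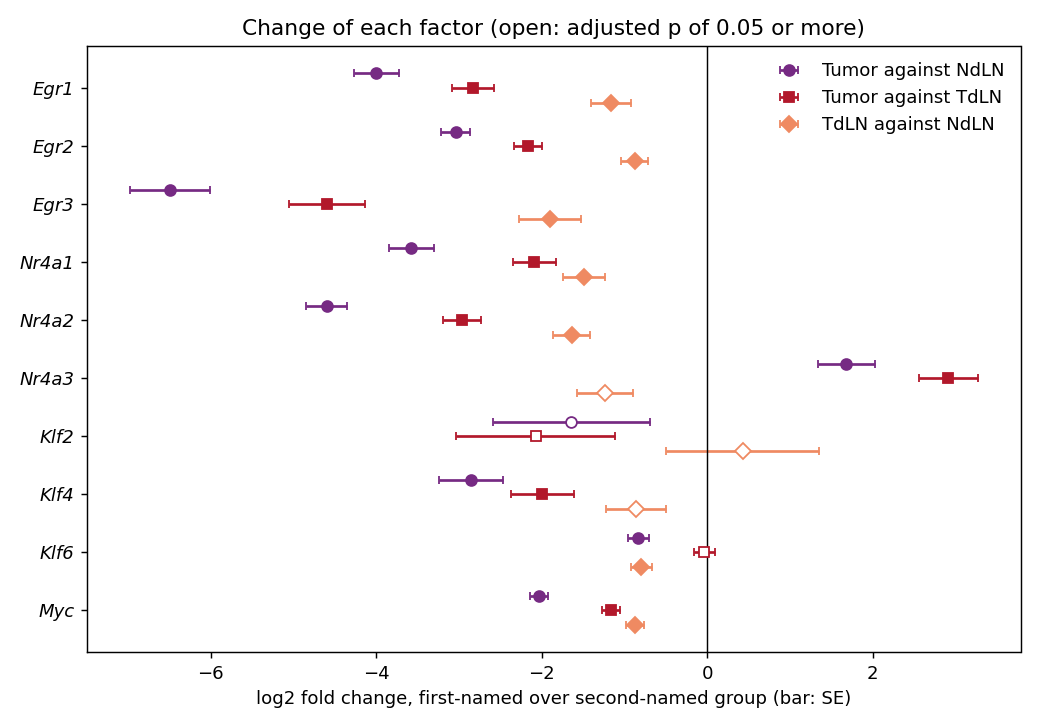
Log2 fold change of each member with its standard error as a bar, first-named group over second, for Tumor against NdLN (circles), Tumor against TdLN (squares) and TdLN against NdLN (diamonds). Filled points passed an adjusted p under 0.05. Points lie left of 0 except Nr4a3 in both Tumor comparisons and Klf2 in TdLN against NdLN.

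The KLF genes differed from one another. In CPM Klf4 was lower in Tumor than in both node groups, a call that held against NdLN but not TdLN relative to endothelial counts. Klf2 passed in no comparison in edgeR, and Klf6 was lower in TdLN than in NdLN and, in CPM only, in Tumor than in NdLN. Klf4 (ENSMUSG00000003032, chr4:55527143-55532466, minus strand), which restrains inflammatory genes in endothelium, had 14.1, 27.7, 31.6, 19.7 and 13.7 CPM in Tumor libraries, 54.1, 83, 53.9, 119 and 115 CPM in TdLN libraries and 135, 324, 107, 115 and 91.2 CPM in NdLN libraries. The Tumor libraries were below all node libraries, the nodes overlapped, and NdLN library 2 stood far above the other NdLN libraries. Its log2 fold change in CPM was -1.99 ± 0.38 in Tumor against TdLN (edgeR adjusted p = 0.000314), which did not pass relative to endothelial counts, -2.85 ± 0.39 in Tumor against NdLN (edgeR adjusted p = 1.21e-05) and -0.86 ± 0.37 in TdLN against NdLN, which did not pass (edgeR adjusted p = 0.235).

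Klf6 (ENSMUSG00000000078, chr13:5861482-5870394, plus strand), the KLF of injury and growth factor responses, had 460, 409, 447, 428 and 395 CPM in Tumor libraries, 363, 388, 459, 520 and 461 CPM in TdLN libraries and 595, 894, 673, 891 and 753 CPM in NdLN libraries. Tumor and TdLN libraries overlapped, and both lay below all NdLN libraries. In CPM the log2 fold change was -0.83 ± 0.13 in Tumor against NdLN (edgeR adjusted p = 3.23e-05), which turns to a higher level in Tumor relative to endothelial counts, as given below. It was -0.80 ± 0.13 in TdLN against NdLN (edgeR adjusted p = 0.00385). In Tumor against TdLN the value was -0.03 ± 0.13 and did not pass (edgeR adjusted p = 0.830).

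Klf2 (ENSMUSG00000055148, chr8:72319033-72321656, plus strand), the flow-induced factor of resting endothelium, had 57.2, 111, 145, 23.0 and 11.5 CPM in Tumor libraries, 54.4, 93.3, 31.4, 879 and 406 CPM in TdLN libraries and 145, 694, 72.1, 91.0 and 84.9 CPM in NdLN libraries. The groups overlapped throughout, and TdLN libraries 4 and 5 and NdLN library 2 stood apart from the rest of their groups. Highest over lowest library was 12.6-fold in Tumor, 28-fold in TdLN and 9.63-fold in NdLN, wider in each group than for any other member whose lowest library was above 0. Its values were -2.07 ± 0.96 in Tumor against TdLN (edgeR adjusted p = 0.0733), -1.64 ± 0.95 in Tumor against NdLN (edgeR adjusted p = 0.138) and 0.43 ± 0.93 in TdLN against NdLN (edgeR adjusted p = 0.855). The first passed in DESeq2 (adjusted p = 0.0461) and without TdLN library 3 (edgeR adjusted p = 0.0393), and the last became -0.57 without TdLN library 4.

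Klf2 varied between libraries of the same tissue, as did other GC-rich transcripts. It followed a score of these transcripts in order in TdLN and only in part in NdLN and Tumor. Its longest transcript is 61.6% G and C, more than 98.5% of the 10870 genes considered, against 54.6% for Klf4 and 42.4% for Klf6. The gene whose levels were most like those of Klf2 over the 15 libraries was Jund (67.1% G and C), an AP-1 subunit gene with 52.8, 127, 145, 22.5 and 8.69 CPM in Tumor, 29.4, 51.9, 12.1, 513 and 287 CPM in TdLN and 118, 465, 39.4, 33.3 and 36.3 CPM in NdLN libraries. As Jund was picked for this likeness, the same libraries were high for both genes. A score of GC-rich transcripts was the median, over 326 genes of at least 60.4% G and C and without the members, of each gene's log2 deviation from its group mean. It was 0.21 and 0.18 in TdLN libraries 4 and 5, -0.52 in TdLN library 3 and 0.17 in NdLN library 2. Because the score is set against the mean of each group, it compares libraries of the same tissue only. In TdLN Klf2 rose in the order of the score, with 31.4, 54.4, 93.3, 406 and 879 CPM at -0.52, -0.05, 0.14, 0.18 and 0.21. NdLN libraries 1 and 2 had 145 and 694 CPM at 0.16 and 0.17. The other NdLN libraries had 72.1 to 91.0 CPM at -0.14 to -0.12. Tumor libraries 2 and 3, with the highest scores of their group, 0.18 and 0.13, had the most Klf2, 111 and 145 CPM. Among Tumor libraries the lowest score, -0.19, was in library 1 at 57.2 CPM and the lowest Klf2, 11.5 CPM, in library 5 at a score of -0.02. Per unit of the score Klf2 changed by 5.75 on the log2 scale, Klf4 by 2.16 and Egr1 by 1.68, while the other 7 members changed by -0.89 (Nr4a3) to 0.42 (Nr4a1), with Egr3 at -0.58. With the score as a covariate, added after the data were seen, the SE of Klf2 in Tumor against TdLN fell to 0.67 and its value was -1.47 (edgeR adjusted p = 0.0671). Plvap, listed here with the blood endothelium markers and GC-rich as well (60.6%), had 117 to 802 CPM in Tumor, 314 to 5097 CPM in TdLN and 923 to 5003 CPM in NdLN libraries. The 6 blood endothelium markers summed to 0.0458% to 0.114% of counts in Tumor, 0.0502% to 0.502% in TdLN and 0.116% to 0.486% in NdLN libraries, with none at 0. Plvap is 1 of these 6, and where it is high it makes up most of the sum. The sum therefore need not follow the content of blood endothelial cells. By gene, 3 of the 6 were lower and 0 higher in TdLN than in NdLN, beside 1.64% and 1.84% of all genes. Their median log2 fold change there was -1.03. The part of base composition or of blood endothelium in the level of Klf2 was not tested.

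**Figure D3:**
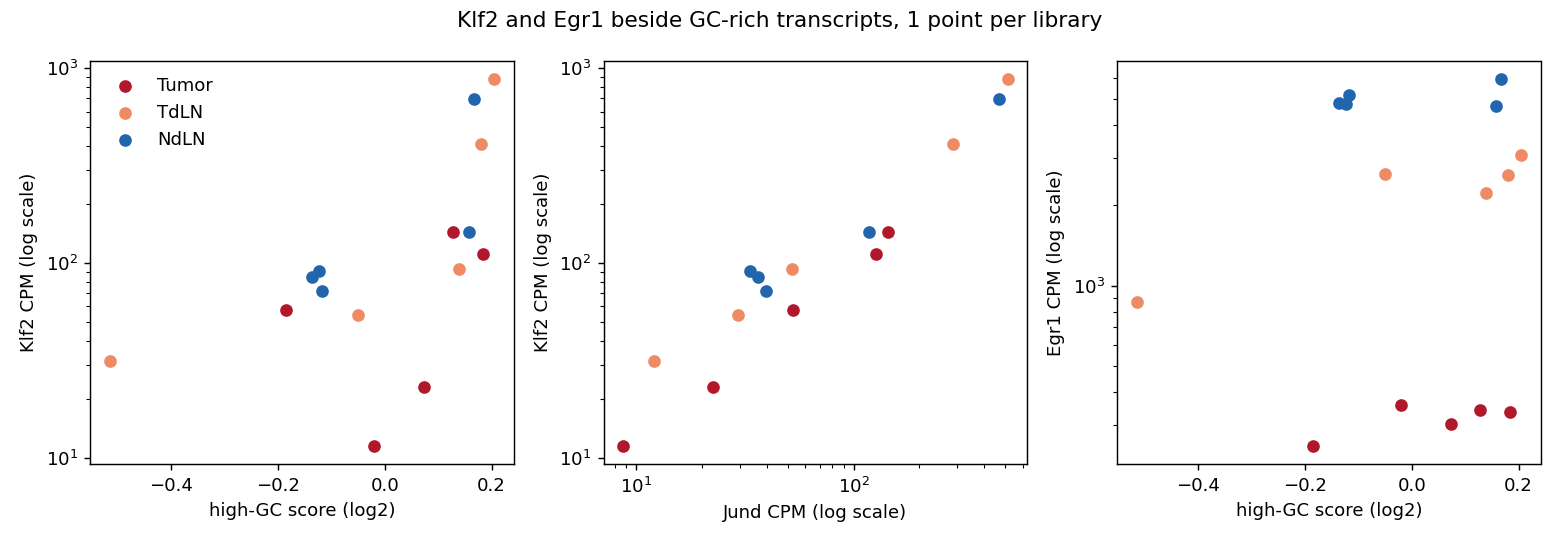
Klf2 CPM (log axis) against the score of GC-rich transcripts (log2) and against Jund CPM (log axis), and Egr1 CPM (log axis) against the same score, 1 point per library of Tumor, TdLN or NdLN. Jund was picked for its likeness to Klf2 over these libraries. The 3 libraries with 406 CPM of Klf2 or more have scores of 0.17 to 0.21 and the highest Jund. The score is a deviation from the group mean, so it compares libraries of the same tissue only. Tumor library 2 and NdLN library 1, at scores of 0.18 and 0.16, have 111 and 145 CPM of Klf2. Egr1 levels form 3 bands by tissue with TdLN library 3, at a score of -0.52, lowest of its band.

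Myc (ENSMUSG00000022346, chr15:61985391-61990374, plus strand) varied little within a tissue and was separate between all 3. It had 88.0, 109, 103, 116 and 110 CPM in Tumor libraries, 258, 206, 223, 266 and 220 CPM in TdLN libraries and 410, 444, 492, 365 and 432 CPM in NdLN libraries. No groups overlapped, with Tumor lowest. In CPM its log2 fold change was -1.16 ± 0.11 in Tumor against TdLN (edgeR adjusted p = 2.10e-07), which did not pass relative to endothelial counts, -2.03 ± 0.11 in Tumor against NdLN (edgeR adjusted p = 5.05e-10) and -0.87 ± 0.11 in TdLN against NdLN (edgeR adjusted p = 0.00113).

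Relative to endothelial transcripts, the falls in Tumor were smaller, Klf6 was higher in Tumor, and Myc and Klf4 no longer passed against TdLN. Each member's count was divided by the summed counts of Pecam1, Cdh5, Tie1, Erg, Egfl7 and Esam, which took 0.132% to 0.212% of counts in Tumor, 0.372% to 0.450% in TdLN and 0.427% to 0.496% in NdLN libraries. Differences were tested by exact two-sided permutation with adjustment over 30 tests, where the smallest p of 5 against 5 libraries is 0.00794 before adjustment. Egr1 had 194 ± 31.8 counts per 1000 endothelial counts in Tumor, 565 ± 228 in TdLN and 1049 ± 84.6 in NdLN libraries (SD, n = 5 each). On this scale its log2 difference was -1.41 in Tumor against TdLN (exact permutation, adjusted p = 0.0216), where the libraries overlapped, unlike in CPM. It was -2.44 in Tumor against NdLN (exact permutation, adjusted p = 0.0132). Egr2 was at -0.86 and Egr3 at -3.60 in Tumor against TdLN, Nr4a2 at -1.62 and Nr4a3 at 4.25, each with an exact permutation adjusted p of 0.0132. Nr4a1 was at -0.88 (exact permutation, adjusted p = 0.0414) with overlapping libraries, a call that was lost in 9 of the 10 tests that left out 1 library. Those tests are coarser, as the smallest exact permutation p of 5 against 4 libraries is 0.0159 before adjustment. The difference stayed between -1.11 and -0.69.

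Klf6 had 264 ± 54.7 counts per 1000 endothelial counts in Tumor libraries, 107 ± 17.4 in TdLN and 157 ± 23.6 in NdLN. It was thus higher in Tumor on this scale, by 1.29 (log2) against TdLN and 0.74 against NdLN (exact permutation, adjusted p = 0.0132 each), where CPM gave -0.03 and -0.83. Myc had 64.1 ± 8.60 per 1000 in Tumor, 57.8 ± 9.80 in TdLN and 88.8 ± 13.5 in NdLN libraries. Its difference was 0.16 in Tumor against TdLN (exact permutation, adjusted p = 0.326) and -0.47 in Tumor against NdLN (exact permutation, adjusted p = 0.0216). Pigment cell, fibroblast and macrophage RNA in Tumor libraries can add to a member's count. What such RNA adds to the endothelial sum was not measured. The part of such RNA in the values of Klf6 and Myc was not tested. Klf4 was at -0.68 in Tumor against TdLN, which did not pass (exact permutation, adjusted p = 0.0762), and at -1.21 in Tumor against NdLN (exact permutation, adjusted p = 0.0132). Klf2 was at -0.26 and -0.01 in Tumor against TdLN and NdLN, and neither passed. In TdLN against NdLN, the 7 members called lower in CPM were lower on this scale too, from -0.55 for Klf6 to -1.69 for Egr3, with exact permutation adjusted p of 0.0132 to 0.0216. Not all were separate on this scale, as libraries of Egr2 overlapped.

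**Figure D4:**
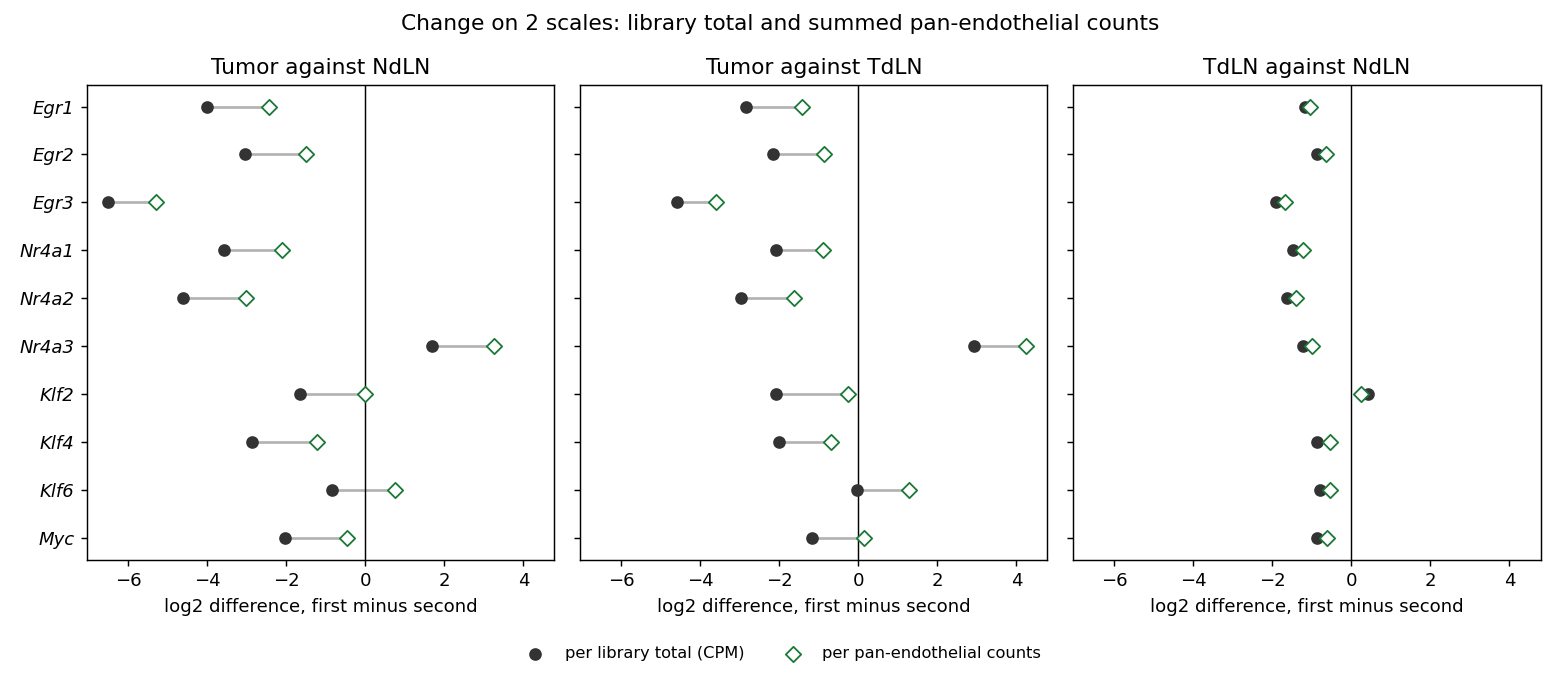
Difference of each member between groups on 2 scales, log2 of the first group minus the second, in CPM (filled circles) and per summed pan-endothelial counts (open diamonds). In both Tumor panels the diamonds lie right of the circles, past 0 for Klf6 (0.74 against NdLN and 1.29 against TdLN) and, against TdLN, for Myc (0.16), while in TdLN against NdLN the scales lie close together.

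Per length (RPKM, counts per kilobase of exon, scaled by library as CPM), the order of the members changed with the tissue. In Tumor, Klf6 was highest at 97.5 ± 6.11 RPKM, above Egr1 at 71.1 ± 9.51 RPKM without overlap, followed by Myc (38.7), Klf2 (37.7) and Nr4a1 (30.3), which overlapped one another. Klf2 reached 78.6 RPKM in 1 Tumor library, into the range of Egr1. In TdLN, Egr1 was first at 506 ± 187 RPKM, and Klf2 (159), Nr4a1 (129), Klf6 (99.8) and Myc (86.4) overlapped in turn, with Klf2 overlapping Egr1 as well. In NdLN, Egr1 at 1134 ± 112 RPKM stood above the rest, Nr4a1 came next at 361 ± 83.8 RPKM, a range that Klf2 reached in NdLN library 2 at 376 RPKM, and Klf6 (173), Myc (158) and Klf2 (118) overlapped. Klf4 was the sixth everywhere, with 7.0 RPKM in Tumor, 27.9 in TdLN and 50.6 in NdLN. Nr4a3 ranked last in both nodes, at 0.376 RPKM in TdLN and 0.885 RPKM in NdLN, and stood above Nr4a2 in Tumor, at 2.85 RPKM beside 1.06 RPKM. Egr3 was last in Tumor at 0.0295 RPKM. Orders of overlapping neighbours depend on the length used. With the longest transcript, Nr4a1 stood above Klf2 in Tumor (41.6 and 37.7 RPKM) and in TdLN (177 and 159 RPKM), and in NdLN Myc (183 RPKM) stood above Klf6 (180.1 RPKM) and Egr2 (29.4 RPKM) above Nr4a2 (29.2 RPKM).

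Of the SRF and ERK pathway genes that feed the EGR genes, 2 of 10 were higher in Tumor than in TdLN and 4 lower, beside 31.9% and 30.1% of all genes, and in TdLN against NdLN none of the 10 passed. Map2k1, the kinase that activates ERK, averaged 175 ± 19.4 CPM in Tumor and 106 ± 9.93 CPM in TdLN (0.72 ± 0.09, edgeR adjusted p = 7.78e-06). Mrtfb, an SRF coactivator, averaged 14.2 ± 2.43 CPM in Tumor and 22.7 ± 1.51 CPM in TdLN (-0.68 ± 0.13), and Elk3, an SRF partner, 272 ± 34.8 CPM in Tumor and 412 ± 50.1 CPM in TdLN (-0.60 ± 0.12). Egr4, the other member of the EGR family, averaged 0.671 ± 0.531 CPM in Tumor and 13.6 ± 7.51 CPM in TdLN (-4.36 ± 0.79, edgeR adjusted p = 0.000203), and the corepressors Nab1 and Nab2 did not pass. Against NdLN, Nab1 averaged 38.3 ± 26.4 CPM in Tumor and 13.5 ± 1.89 CPM in NdLN (1.51 ± 0.47, edgeR adjusted p = 0.0101), with overlapping libraries.

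Of 10 genes of CREB signalling and the RXR partners of NR4A, 5 were lower in Tumor than in TdLN and 0 higher, beside 30.1% and 31.9% of all genes. Their median was -0.55, beside -1.71 for the 6 pan-endothelial markers, and the part of endothelial content was not tested. Crtc2, a coactivator of CREB, averaged 34.1 ± 11 CPM in Tumor and 88.3 ± 9.95 CPM in TdLN (-1.37 ± 0.20, edgeR adjusted p = 2.89e-05), and Creb1 itself 30.6 ± 5.81 CPM in Tumor and 53.1 ± 8.17 CPM in TdLN (-0.79 ± 0.14). Rxrg was low, at 0.196 ± 0.229 CPM in Tumor and 3.65 ± 0.910 CPM in TdLN. In TdLN against NdLN 2 of the 10 were lower, beside 1.64% of all genes, and both are themselves CREB target genes. Sik1, a kinase that holds the CRTC coactivators in the cytoplasm, averaged 70.6 ± 15.9 CPM in TdLN and 144 ± 24.2 CPM in NdLN (-1.03 ± 0.25, edgeR adjusted p = 0.0357), and Crem, a CREB relative, 48.9 ± 3.69 CPM in TdLN and 70.8 ± 9.13 CPM in NdLN (-0.54 ± 0.13, edgeR adjusted p = 0.0390).

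In the MEKK3, ERK5 and MEF2 cascade above Klf2 and Klf4, with the CCM proteins that restrain it, 2 of 11 genes were higher and 4 lower in Tumor than in TdLN, beside the same shares of all genes, and 0 passed in TdLN against NdLN. Mef2c, a MEF2 factor of endothelium, averaged 81.6 ± 9.80 CPM in Tumor and 38.7 ± 3.24 CPM in TdLN (1.08 ± 0.12, edgeR adjusted p = 1.28e-06). Krit1, the gene of CCM1, averaged 13.7 ± 2.77 CPM in Tumor and 27.0 ± 3.13 CPM in TdLN (-0.98 ± 0.15), and Heg1, the receptor that anchors KRIT1, 28.8 ± 7.72 CPM in Tumor and 56.2 ± 13.1 CPM in TdLN (-0.96 ± 0.19). The median of the 11 was -0.12, beside -1.71 for the 6 pan-endothelial markers. The part of endothelial content or of RNA from other cells in these values was not tested. All 4 endothelial target genes of KLF2 and KLF4 were lower in Tumor than in TdLN, beside 30.1% of all genes, and 0 of 4 passed in TdLN against NdLN. Thbd, thrombomodulin, averaged 30.3 ± 10.7 CPM in Tumor and 660 ± 91.6 CPM in TdLN (-4.45 ± 0.24, edgeR adjusted p = 7.32e-10). Gja4, connexin 37, averaged 7.42 ± 4.60 CPM in Tumor and 362 ± 88.2 CPM in TdLN (-5.61 ± 0.40), and S1pr1, a sphingosine-1-phosphate receptor, 318 ± 60.5 CPM in Tumor and 990 ± 16.6 CPM in TdLN (-1.64 ± 0.12). The median of the 4 was -3.35, beside -1.71 for the 6 pan-endothelial markers, which were all lower in the same comparison, and the part of endothelial content was not tested.

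Of 12 other KLF genes tested among 14 listed, 3 were higher and 4 lower in Tumor than in TdLN, beside 31.9% and 30.1% of all genes. Klf7 averaged 36.4 ± 6.44 CPM in Tumor and 145 ± 15.3 CPM in TdLN (-1.99 ± 0.13, edgeR adjusted p = 5.61e-09), and Klf10, a TGF-beta induced gene, 103 ± 12 CPM in Tumor and 217 ± 15 CPM in TdLN (-1.07 ± 0.14). Klf12 was higher in Tumor but low, at 1.68 ± 0.503 CPM in Tumor and 0.272 ± 0.165 CPM in TdLN. In TdLN against NdLN 1 of the 12 passed, Klf10, at 217 ± 15 CPM in TdLN and 331 ± 79.8 CPM in NdLN (-0.61 ± 0.14, edgeR adjusted p = 0.0294).

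While Myc was lower in Tumor in CPM, most of its listed target genes were higher. Of 17 MYC targets of ribosome building and growth, 14 were higher in Tumor than in TdLN and 0 lower, beside 31.9% and 30.1% of all genes. Against NdLN 15 were higher and 0 lower, beside 34.0% and 32.5%, and 0 passed in TdLN against NdLN. Bop1, a ribosome assembly factor, averaged 238 ± 19.6 CPM in Tumor and 92.6 ± 14.7 CPM in TdLN (1.36 ± 0.10, edgeR adjusted p = 2.68e-08). Npm1, nucleophosmin, averaged 175 ± 37.9 CPM in Tumor and 69.7 ± 12.8 CPM in TdLN (1.33 ± 0.15), and Ncl, nucleolin, 638 ± 68.7 CPM in Tumor and 315 ± 55.1 CPM in TdLN (1.02 ± 0.11). Their median was 0.92 beside 0.04 for all genes. The pigment cell transcripts moved with this list, and their part in it was not tested. In the MYC family and MAX network, 2 of 10 genes were higher and 5 lower in Tumor than in TdLN, beside 31.9% and 30.1% of all genes. Mycn averaged 17.6 ± 6.31 CPM in Tumor and 41.7 ± 8.13 CPM in TdLN (-1.24 ± 0.22), the MAX partner Mga 17.7 ± 3.36 CPM in Tumor and 44.3 ± 3.20 CPM in TdLN (-1.33 ± 0.15), and Mxd4, a repressor that competes for MAX, 42.5 ± 11 CPM in Tumor and 119 ± 36 CPM in TdLN (-1.49 ± 0.24). Mxd3, another repressor of that family, was the 1 of 10 that passed in TdLN against NdLN, at 14.9 ± 8.34 CPM in TdLN and 3.53 ± 1.76 CPM in NdLN (2.07 ± 0.40, edgeR adjusted p = 0.0103).

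**Figure D5:**
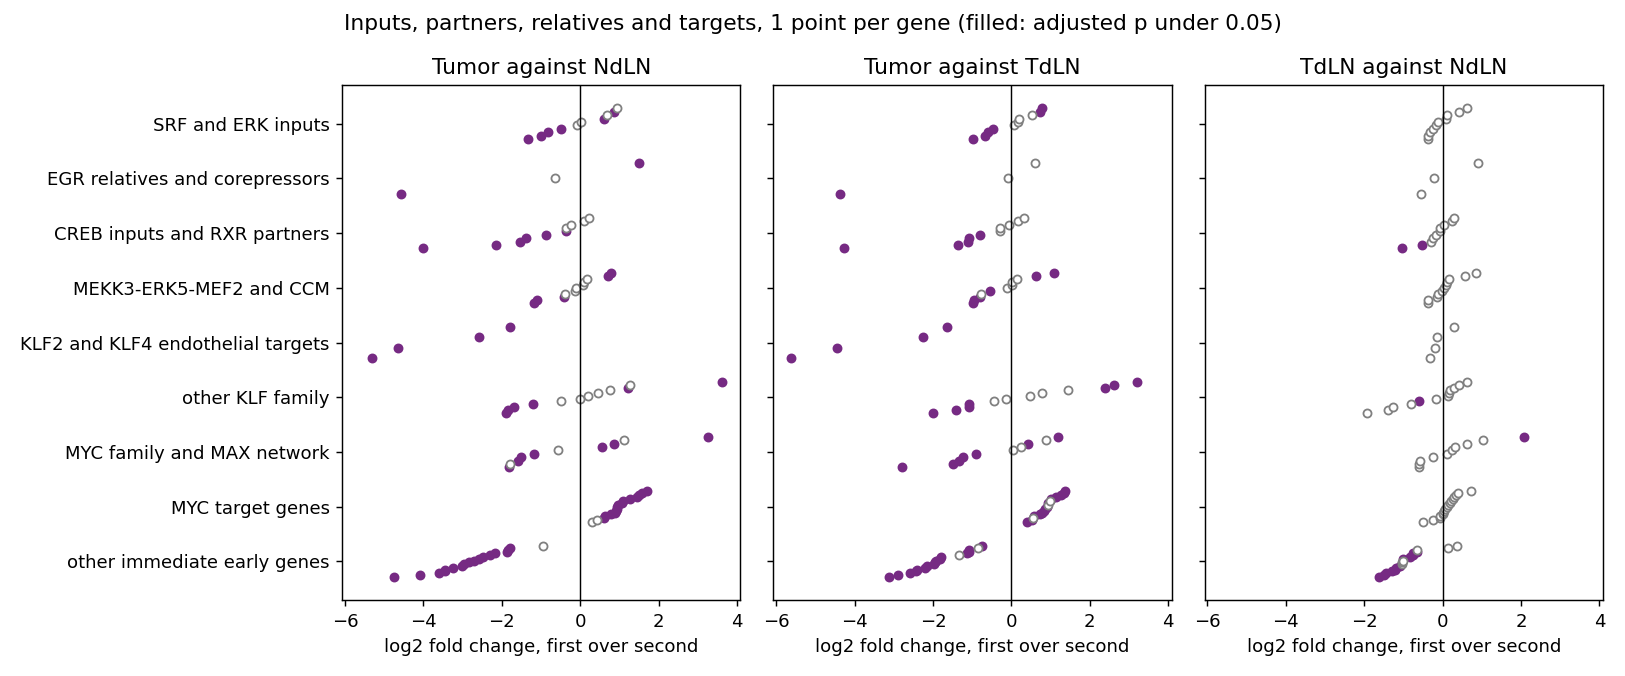
Log2 fold change of each tested gene of 9 lists, first group over second, in the same 3 comparisons, with filled points for an adjusted p under 0.05. MYC targets lie right of 0 and other immediate early genes left of 0 in both Tumor panels, and in TdLN against NdLN filled points are mostly those of the 12 immediate early genes called lower.

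Other immediate early genes were mostly lower as well. Of 18 such genes, 16 were lower in Tumor than in TdLN, 17 lower than in NdLN and 12 lower in TdLN than in NdLN, beside 30.1%, 32.5% and 1.64% of all genes, with 0 higher in any. Their median was -1.94 in Tumor against TdLN and -2.77 in Tumor against NdLN, beside -1.71 and -1.81 for the 6 pan-endothelial markers, and the part of endothelial content was not tested. The median was -1.02 in TdLN against NdLN, as was that of the 10 members, beside -0.26 for the pan-endothelial markers. Over the 15 libraries, likeness was measured as the root mean square difference of gene-centred log2 CPM among 7421 genes of sufficient level, where a lower value is closer. Egr1 was nearest to Jun (0.30), an AP-1 subunit gene, and Arhgap42 (0.40). Egr2 was nearest to Ier2 (0.26) and Hbegf (0.26), the gene of a heparin-binding growth factor, and Nr4a1 to Amotl2 (0.28) and Socs3 (0.35), a brake on cytokine signalling. Nr4a2 was nearest to Zfp36 (0.47), which speeds mRNA decay, and to Fosb (0.47), which was also near Egr3 (0.65), after the oxidase gene Duox2 (0.62). Myc was nearest to Spty2d1 (0.17) and to the polo-like kinase gene Plk2 (0.18), Klf6 to Irak2 (0.21) and Mbnl2 (0.22), and Klf4 to Tmem44 (0.39) and Wscd1 (0.40). Nr4a3 was nearest to Aldh3b1 (0.59) and to Pltp (0.61), a lipid transfer protein gene. Aldh3b1 averaged 63.8 CPM in Tumor, 13.3 CPM in TdLN and 17.7 CPM in NdLN. Between members, Egr2 and Nr4a1 were closest at 0.50, and Egr3 and Nr4a3 farthest apart at 3.60.

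Within a tissue, single libraries tended to lead for several members. TdLN library 4 was highest of its group for 6 of the 10 genes, NdLN library 2 for 6 of 10, and Tumor library 1 was lowest for 5 of 10. The same was not counted over all genes, so these leads need not be particular to the members. Every member call in CPM that passed kept its direction and stayed past the threshold whichever single library was left out.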

How the data were processed

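RNA of sorted lymphatic endothelial cells was sequenced as single reads of 50 bases after low-input amplification and a transposase-based library preparation, per the labels' protocols. The authors deposited raw counts per gene for 21839 genes in 15 libraries. The submitters' processing notes name build GRCm38, CASAVA 1.8.2, STAR 2.4 and, as counter, featureCounts 1.4.6. The annotation release and strandedness used are not given in the sources used. Exons of the 10 members overlap no other gene's exons in GENCODE M21, which named 21628 of the IDs and gave coordinates and lengths. Reads were amplified without molecular identifiers, so depth bounds counting error only. No pair of libraries agreed within sampling noise (lowest mean chi-square per gene 28.3), so none was counted as a duplicate.

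Counts were tested with edgeR 4.0.16 (robust glmQLFit and glmQLFTest, TMM factors, filterByExpr) in 1 fit of all 15 libraries, with Benjamini-Hochberg adjustment over 13887 genes and a threshold of 0.05. CPM used TMM-scaled totals, and RPKM the union of exons. Ratios to endothelial counts were tested by exact permutation in scipy 1.17.1, with 0.5 added to a count of 0. The edgeR step was tested on simulated data with 200 changed genes. Alternatives were RLE and upper quartile scaling, no filter, a stricter filter (10 CPM in 5 libraries), DESeq2 1.42.0, voom of limma 3.58.1, a replicate block, a fit without the third group, each library left out, lymphatic markers as the denominator, and the longest transcript for RPKM. The GC covariate was added after the data were seen.

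Groups were taken from the labels. The 10 members and all gene lists were chosen with earlier results of these data known. Named were all members, up to 3 genes of the smallest adjusted p per list and comparison, the 2 genes nearest to each member (average log2 CPM of at least 4, prior count 2) and the sort markers. Of these the text gives a part. Plvap was added after its values were seen.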

Additional observations from a re-analysis of the deposited data

Results flagged for a closer look

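Among 30 groups of 5 libraries (10 members in 3 tissues), 3 held a library far from the others by Dixon's test, and chance gives about 1 in 20. Klf2 was at 694 CPM in NdLN library 2, beside 72.1 to 145 CPM in the other NdLN libraries. Klf4 was at 324 CPM in the same library, beside 91.2 to 135 CPM in the others. Egr2 was at 114 CPM in NdLN library 3, beside 76.3 to 83.8 CPM in the others. Without NdLN library 2, Klf4 in TdLN against NdLN still did not pass in edgeR.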

How the results depend on the processing

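Of 567 member log2 fold changes under the alternatives, 560 kept their direction and their side of the threshold, and of 330 ratios to endothelial counts 310 did. The genes changed in TdLN against NdLN were 484 in edgeR, 986 in DESeq2 and 817 in limma's voom, and 225 to 564 with 1 library left out. That count was over 1.5 times lower without TdLN library 1 (225), 2 (258) or 3 (315) and without NdLN library 2 (245), 3 (307), 4 (277) or 5 (319). Single libraries turned values that had not passed. With 1 library left out, Klf6 in Tumor against TdLN ran from -0.10 to 0.030 and Klf2 in TdLN against NdLN from -0.57 to 1.58. The ratio of Klf2 to endothelial counts ran from -0.83 to 0.42 in Tumor against TdLN, from -0.35 to 0.53 in Tumor against NdLN and from -0.43 to 0.82 in TdLN against NdLN. That of Nr4a1 in Tumor against TdLN ran from -1.11 to -0.69, with exact permutation adjusted p of 0.0207 to 0.0794. The cause was not tested. With lymphatic markers as the denominator, 8 members in place of 7 passed in TdLN against NdLN, Nr4a3 being added. RPKM means of 5 of 30 moved with the longest transcript as length. Same-numbered libraries of different groups deviated with correlations of -0.21 to 0.25. The labels do not say if they share mice, and such correlations cannot settle it. With the replicate number as a block, 8381 genes changed in Tumor against TdLN, 8995 in Tumor against NdLN and 400 in TdLN against NdLN, beside 8614, 9230 and 484 without the replicate block. Fewer than 10 counts per Tumor library limit Egr3.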
